A study of Arabidopsis thaliana with 18 samples.

Results

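The genes described here are 10 members of the SQUAMOSA PROMOTER BINDING PROTEIN-LIKE (SPL) family of Arabidopsis thaliana: SPL2, SPL3, SPL4, SPL5, SPL9, SPL10, SPL11, SPL13A, SPL14 and SPL15. A peak was assigned to an SPL gene when it overlapped the TAIR10 gene or the 3000 bp on either side by at least 1 bp. By this rule, 23 of the 16105 peaks belonged to the family, and they lay at 6 of the 10 genes. The 10 genes are part of the 27444 protein-coding genes of the nuclear chromosomes that served as the background, of which 43.9% had a peak of at least 1 list by the same rule.

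The peaks come from DAP-seq, in which a protein made in vitro is incubated with a genomic DNA library and the bound fragments are sequenced. The bait was the MADS-domain protein FRUITFULL (FUL), which carried the FLAG tag used for the pull-down and was made with untagged SOC1, with AG and SEP3, alone, with AG, or with SEP3, and each peak list is named after its proteins: FUL, FUL-SOC1, FUL-AG, FUL-SEP3 and FUL-AG-SEP3. All 5 mixtures and an input control, with 3 samples each, used 400 ng of a library of Col-0 genomic DNA. Each list combined its 3 replicates before peak calling, so a peak has a single -log10 p and a single fold enrichment, the ratio to the background that MACS2 estimated with the input as control, with no spread between replicates and no number of reads behind it. No difference between lists could be tested, and the lists differ in length, from 1390 peaks for FUL-SEP3 to 4831 for FUL-SOC1. The strength of a peak is also given as the share of its own list with a higher fold enrichment, so that a low share marks a strong peak. This share places a peak within its own list. It depends on how many weaker peaks the list holds, so it does not remove the difference in length between lists. DAP-seq measures binding to naked DNA, and transcription of the SPL genes was not measured.

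SPL proteins are plant transcription factors that share the SBP DNA-binding domain. Most of the genes studied here are repressed after transcription by the microRNA miR156, which is abundant in young plants and declines with age, and the rising SPL levels bring about adult leaf traits and flowering. FUL and SOC1, the MADS-domain proteins of the inflorescence meristem, are themselves activated by SPL proteins. MADS-domain dimers recognise the CArG-box, written here as CC[A/T]6GG, and tetramers can bind pairs of boxes. In the gel-shift assays of the study, tetramers also formed on a probe with a single CArG-box.

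The letters under the 6 sites that carried the strongest or most telling peaks are shown first, because the boxes differ in how closely they match. Each run is 30 bases of the plus strand of TAIR10, and the capitals mark the 10 bases in the 200 bp at the summit with the fewest mismatches to the CArG-box.

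SPL2, chr5:17363524-17363553: ggatgtctcaCCATTTATGGtaatattatc

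SPL13A site 1, chr5:20584591-20584620: tgatttacttACTTTAATTGtaactttact

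SPL13A site 2, chr5:20583375-20583404: ctgtttatgaCCATTAATAGtaaccacagg

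SPL3, chr2:14307777-14307806: gataaactatCTAAAAATGGttagcctaaa

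SPL14 site 1, chr1:7326892-7326921: tctgaggtgaTCATTTCTGGccatgccctg

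SPL15, chr3:21446283-21446312: ctaatttattCTAATTATTGtatactagtt

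The SPL2 run holds an exact box. The runs of SPL13A site 2 and SPL3 differ from the consensus by 1 mismatch, and those of SPL13A site 1, SPL14 site 1 and SPL15 by 2.

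FUL-SOC1 peaks were found at 6 of the 10 SPL genes, and no other list reached more than 3. In that list 28.7% of all protein-coding genes had a peak within the same distance. This order of the lists did not hold at equal length: among the 1000 peaks of smallest p of each list, FUL-SOC1 peaks were left at 1 SPL gene, FUL and FUL-AG peaks at 2 each, and peaks of FUL-AG-SEP3 and FUL-SEP3 at 0. Within the gene bodies alone, FUL-SOC1 peaks were found at 3 genes and those of the other lists at 2 each. The share of all protein-coding genes was not computed at either of these settings, so these counts cannot be set against a background. FUL-AG-SEP3 peaks were found at 3 of 10 genes, against 27.1% of all genes. FUL peaks occurred at 2 of 10 genes, against 17.0%, FUL-AG peaks at 3 of 10, against 18.1%, and FUL-SEP3 peaks at 2 of 10, against 9.22%. With 10 genes, each gene stands for 10 percentage points, and the counts of FUL-AG-SEP3 and FUL were within 1 gene of the background share. The 23 peaks divided into 8 of FUL-SOC1, 5 of FUL-AG-SEP3, 4 of FUL, 4 of FUL-AG and 2 of FUL-SEP3. Per megabase of the 81625 bp covered by the SPL windows this came to 98.0 peaks for FUL-SOC1, compared with 40.4 over the nuclear chromosomes. The other lists had 61.3 against 37.2 for FUL-AG-SEP3, 49.0 against 21.6 for FUL, 49.0 against 23.6 for FUL-AG and 24.5 against 11.6 for FUL-SEP3. The windows contain genes and their close flanks, whereas the nuclear figure includes regions far from genes. SPL13A alone held 2 of the FUL-SOC1 peaks, 3 of FUL-AG-SEP3, 3 of FUL, 2 of FUL-AG and 1 of FUL-SEP3. Its sequence is identical to that around SPL13B, as described below, and the densities without it were not computed.

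**Figure D1:**
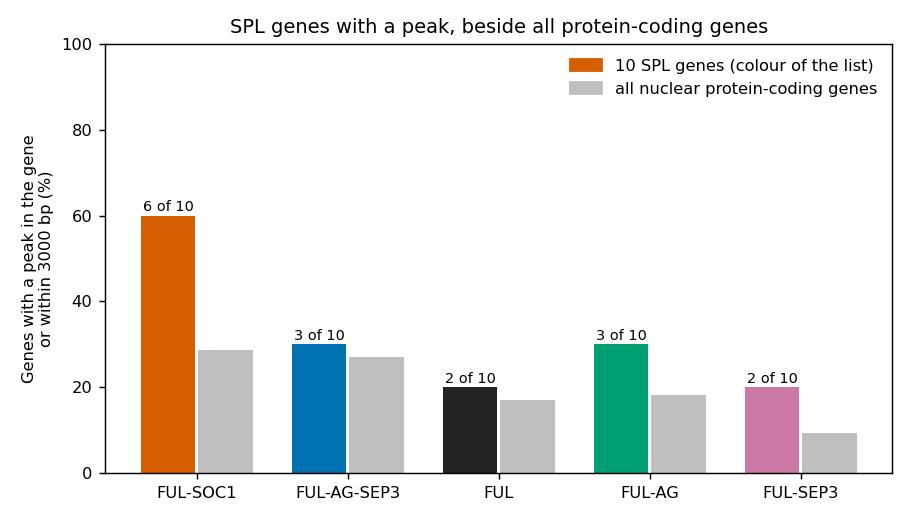
Percentage of genes with a peak in the gene or within 3000 bp, for the 10 SPL genes (coloured bars, with the number of genes above) and for all 27444 nuclear protein-coding genes (grey bars), in each peak list. FUL-SOC1 has 6 of 10 SPL genes and the other lists have 2 or 3.

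When overlapping peaks of different lists were joined, the 23 peaks formed 11 separate sites. SPL2, SPL3 and SPL15 had 1 site each, SPL11 and SPL14 had 2, and SPL13A had 4. Of the 11 sites, 6 were present in 1 list, which was FUL-SOC1 for 5 of them and FUL for the other. The remaining 5 sites were present in 2 or more lists, and the SPL2 site was the only one in all 5. The same division of sites was not computed over the genome. FUL-SOC1 was the longest list, and 54.1% of its nuclear peaks overlapped a peak of another list, against 77.1% to 95.1% in the other lists. Of the peaks, 14 overlapped the body of the SPL gene and 9 lay outside it, and for 15 the nearest annotated start of transcription was that of an SPL gene. Neither share was computed over the peaks of other genes, so these counts have no background.

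**Figure D2:**
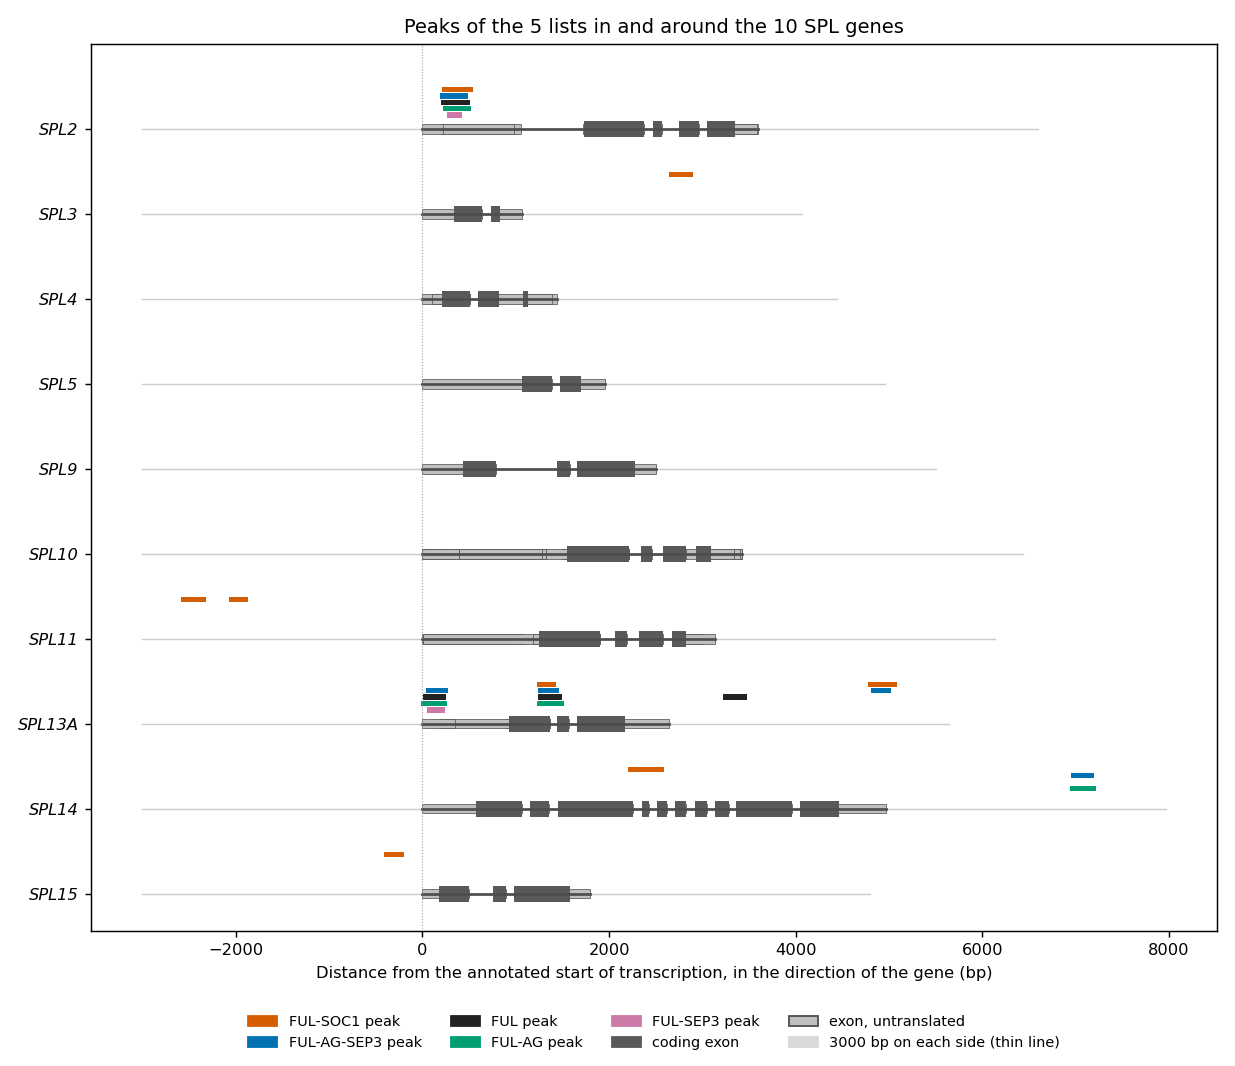
Position of every peak (coloured bars above its gene, 1 lane per list) relative to the annotated start of transcription of the 10 SPL genes, in bp along the direction of the gene; dark boxes are coding exons, light boxes untranslated exons and the thin line the gene with 3000 bp on each side. Peaks of several lists are stacked at SPL2 and at 2 places in SPL13A, whereas SPL3, SPL11 and SPL15 carry FUL-SOC1 peaks alone and SPL4, SPL5, SPL9 and SPL10 carry none.

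SPL2 (AT5G43270, chr5:17360287-17363880, minus strand), a miR156-regulated gene that acts with SPL10 and SPL11 in the development of leaves and flowers, had the most widely shared site and the highest FUL-SOC1 peak of the family. The summits of all 5 lists fell between 320 and 383 bp after the earliest annotated start of transcription. This position is the 5′ UTR in 2 of the 3 annotated transcripts, which begin 202 bp after the earliest start, and an intron in the transcript that begins there. The fold enrichment was 4.40 for FUL-SOC1 (-log10 p 16.0), a value exceeded by 3.29% of that list. It was 3.88 for FUL-AG (12.5), exceeded by 18.5% of the list, and 5.06 for FUL (19.8), exceeded by 25.4%. For FUL-AG-SEP3 it was 3.44 (9.84), exceeded by 31.9%, and for FUL-SEP3 3.29 (7.38), exceeded by 75.2%. By this share the peak stood highest for FUL-SOC1 and lowest for FUL-SEP3, the shortest list, although the largest fold enrichment was in the FUL list. Ranked by p within each list, it stood at 238 in FUL-SOC1, 648 in FUL-AG and 746 in FUL. It stood at 1166 in FUL-SEP3 and 1712 in FUL-AG-SEP3, so the lowest place depended on the measure. In all 5 lists the best match near the summit was the same exact box, CCATTTATGG at chr5:17363534-17363543, with A or T at 5 of the 6 flanking positions, 3 on each side. The centre of this box lay between 4 bp (FUL) and 41 bp (FUL-SOC1) from the summits.

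The covered box of SPL2, printed above, can be set beside an exact box nearer the start that no peak covered, again in capitals. This box lies in the first exon of the transcript with the earliest start, in its 5′ UTR, and before the start of the other 2 transcripts.

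SPL2 box outside the peaks, chr5:17363688-17363717: agtaaagcttCCATTTTTGGcttagcataa

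The uncovered box began 4 bp beyond the edge of the FUL-AG-SEP3 peak, and 4 of its 6 flanking positions are A or T. The remaining exact box of the SPL2 window, at chr5:17358026-17358035 in the 5′ UTR of the neighbour AT5G43260, was 5306 bp from the nearest peak.

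SPL13A (AT5G50570, chr5:20582083-20584721, minus strand), which promotes adult leaf traits and is repressed by miR156 in seedlings, held 11 of the 23 peaks. They fell into 4 sites. These values need a caution that applies to no other member: the whole 8639 bp window of SPL13A has a copy of 100% identity around SPL13B (AT5G50670), 33342 bp away on the same chromosome. The identical run is 25719 bp long, and a read from either copy matches both. How such reads were placed is not given in the sources used here, so binding at SPL13A and at SPL13B cannot be told apart.

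Site 1 of SPL13A lay in the 5′ UTR of 1 of the 2 transcripts, with summits 99 to 144 bp after the annotated start. Its fold enrichment was 4.93 for FUL (-log10 p 21.6, exceeded by 27.9% of the list), 4.03 for FUL-AG (14.7, 15.9%), 3.52 for FUL-AG-SEP3 (10.9, 29.0%) and 2.43 for FUL-SEP3 (4.75, 97.8%). FUL-SOC1 had no peak at this site. It was the only site shared by 4 or more lists from which FUL-SOC1 was missing. Within 100 bp of the summits the best boxes had 2 mismatches. The one nearest the summit was ACTTTAATTG for FUL, FUL-AG-SEP3 and FUL-SEP3, and CCTGATTTAG for FUL-AG. Both runs lay within 100 bp of every summit of the site, so the choice between them came from distance alone.

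Site 2 of SPL13A lay in the first coding exon of SPL13A, with summits 1313 to 1326 bp after the start, and was present in all lists but FUL-SEP3. The fold enrichment was 3.31 for FUL (-log10 p 9.04, exceeded by 73.1% of the list), 3.13 for FUL-AG (7.76, 54.0%), 2.92 for FUL-SOC1 (6.86, 59.5%) and 2.86 for FUL-AG-SEP3 (6.60, 68.3%). All 4 peaks were in the lower part of their lists. The summits of the 4 lists lay within 13 bp of each other, and all were 5 to 18 bp from the same box with 1 mismatch, CCATTAATAG. The 120 bp around the strongest of these summits are shown because the summit and the box lie in coding sequence. The left end of the stretch runs past the exon into the intron that follows it. The capitals mark the only box of at most 1 mismatch in the stretch.

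SPL13A site 2, chr5:20583336-20583455: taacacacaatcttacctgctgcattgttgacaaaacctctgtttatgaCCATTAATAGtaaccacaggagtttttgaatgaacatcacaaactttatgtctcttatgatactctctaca

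The other SPL13A sites lay beyond the 3′ end. Site 3 was a FUL peak of 2.76-fold (-log10 p 5.82, exceeded by 91.5% of the list) 579 bp downstream, in a coding exon of the neighbour AT5G50565 in 2 of its 6 transcripts. Site 4, between genes and 2137 to 2168 bp downstream, had a fold enrichment of 2.61 for FUL-SOC1 (5.39, exceeded by 81.9%) and 2.70 for FUL-AG-SEP3 (6.11, exceeded by 78.6%). Both sites were among the weaker peaks of their lists, and their nearest starts of transcription belonged to AT5G50562 and AT5G50565.

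At SPL13B, peaks of the same list stood at the matching position for 7 of the 11 SPL13A peaks. The fold enrichments of these pairs differed by a factor of 1.04 to 1.19. At site 1, SPL13B had 4.69 for FUL, 4.41 for FUL-AG and 4.19 for FUL-AG-SEP3. At site 2 it had 3.86 for FUL, 3.03 for FUL-AG, 2.65 for FUL-SOC1 and 2.59 for FUL-AG-SEP3. Neither copy was higher throughout, as SPL13A had the higher value in 4 pairs and SPL13B in 3. The FUL-SEP3 peak of site 1 and the peaks of sites 3 and 4 had no counterpart at SPL13B, although the sequence there is the same.

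**Figure D3:**
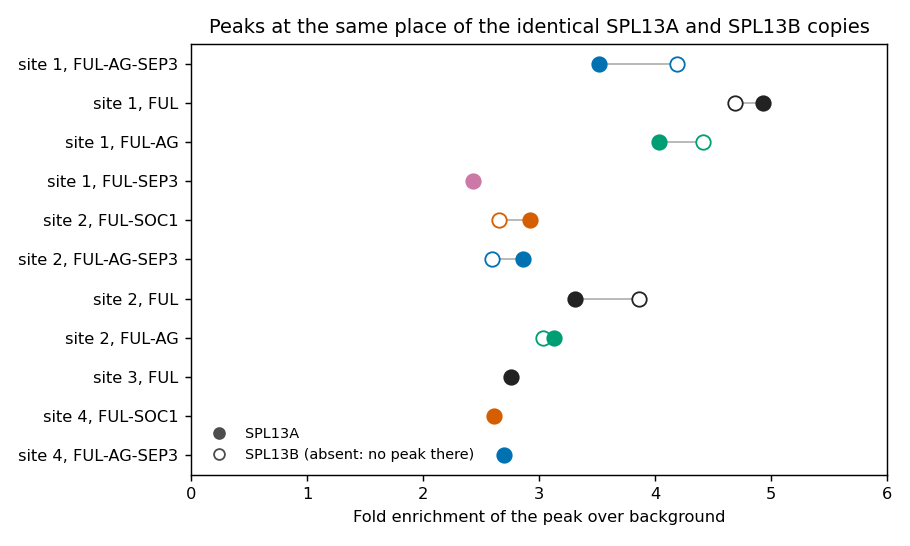
Fold enrichment over background of the SPL13A peaks (filled circles) and of the peaks at the matching place of SPL13B (open circles), 1 row per site and list, coloured by list. For 7 rows both copies have a peak and the values lie close together, and for 4 rows only SPL13A has one.

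SPL3 (AT2G33810, chr2:14305001-14306072, plus strand), which with SPL4 and SPL5 forms the group of small SPL proteins that promote the floral transition, had a single FUL-SOC1 peak. It had a fold enrichment of 3.50 (-log10 p 10.2), exceeded by 21.4% of the list, at chr2:14307647-14307896. The peak was 1575 bp beyond the 3′ end of SPL3, inside an intron of the next gene, AT2G33820 (MBAC1), whose start of transcription was 581 bp from the summit. By distance it therefore belonged to the neighbour rather than to SPL3. The best box, CTAAAAATGG, had 1 mismatch, its centre was 5 bp from the summit and all 6 of its flanking bases were A or T. The whole peak held 3 boxes of at most 1 mismatch, this one included. SPL4 (AT1G53160) and SPL5 (AT3G15270) had no peak in any list.

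SPL14 (AT1G20980, chr1:7324471-7329441, plus strand), a long member that is not a miR156 target and influences plant architecture and the transition to the adult phase, had a FUL-SOC1 peak within the gene. Its fold enrichment of 3.57 (-log10 p 11.0) was exceeded by 19.6% of the list, which made it the SPL peak of second rank in FUL-SOC1 after SPL2. The summit fell in exon 4 of 10, a coding exon, 2424 bp after the start. The best box in the window, TCATTTCTGG, had 2 mismatches, lay in the intron that follows, and had A or T at 3 of the 6 flanking positions. The 120 bp around the summit are printed because the peak was found with SOC1 alone and holds no closer box; the capitals mark the box of 2 mismatches.

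SPL14 site 1, chr1:7326835-7326954: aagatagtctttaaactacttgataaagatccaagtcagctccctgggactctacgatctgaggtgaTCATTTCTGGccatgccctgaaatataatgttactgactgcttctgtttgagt

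A second SPL14 site lay 1964 bp beyond the 3′ end, where AT1G20990 has an intron. It was present in FUL-AG, at 2.78-fold (-log10 p 7.18, exceeded by 78.5% of the list), and in FUL-AG-SEP3, at 1.95-fold (3.88, exceeded by 99.1%). The latter was the lowest fold enrichment among the 23 peaks. Both summits were near the same box of 1 mismatch, ACAAATAAGG.

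SPL15 (AT3G57920, chr3:21444243-21446035, minus strand), which acts at the shoot apex in the floral transition and activates FUL, had a single peak. The FUL-SOC1 peak at chr3:21446232-21446444 lay 197 bp upstream, with its summit 260 bp before the start of transcription, in intergenic sequence. It was weak, with a fold enrichment of 2.52 (-log10 p 4.93), a value exceeded by 86.6% of the list. The best box, CTAATTATTG, had 2 mismatches, was centred 2 bp from the summit and had A or T at all 6 flanking positions. The peak also held 2 overlapping boxes of 1 mismatch, both more than 100 bp from its summit. The 120 bp at this upstream summit are shown because this was the only peak that lay upstream of an SPL gene and had that gene's start as the nearest; the capitals mark the 4 boxes of at most 2 mismatches, of which the last 2 overlap.

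SPL15, chr3:21446235-21446354: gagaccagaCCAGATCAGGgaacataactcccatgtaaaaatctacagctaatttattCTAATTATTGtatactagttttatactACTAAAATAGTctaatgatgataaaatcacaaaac

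An exact box of the SPL15 window, at chr3:21448324-21448333 in the 5′ UTR of AT3G57930, was 1880 bp from this peak and was covered by none.

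SPL11 (AT1G27360, chr1:9500892-9504023, plus strand) and SPL10 (AT1G27370, chr1:9505112-9508542, minus strand) lie end to end, and both act redundantly with SPL2. SPL11 had 2 FUL-SOC1 peaks upstream. The nearer, 1872 bp upstream, had a fold enrichment of 2.79 (-log10 p 6.35, exceeded by 69.4% of the list), and the farther, 2322 bp upstream, had 3.12 (9.24, exceeded by 44.9%). Both lay in introns of the next gene, AT1G27350, whose start was the nearest one to either summit. The stronger peak held no box of fewer than 2 mismatches within 100 bp of its summit, and the weaker one held CCAATTTGGG, with 1 mismatch. SPL10 had no peak, and neither had SPL9 (AT2G42200), the member best known for speeding the change from the juvenile to the adult phase together with SPL15.

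**Figure D4:**
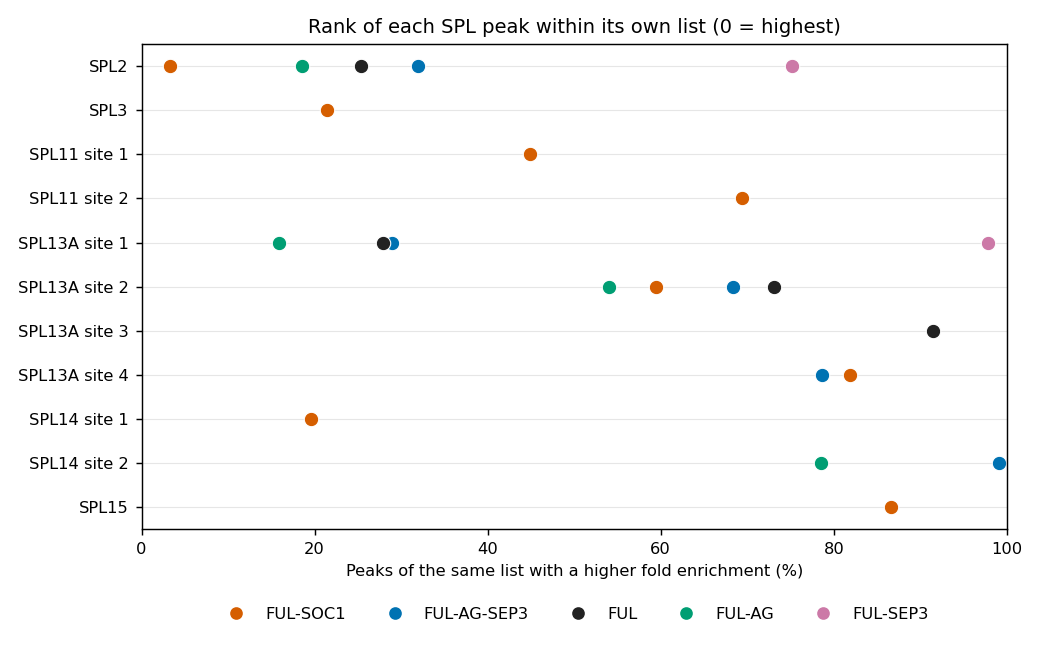
Percentage of the peaks of the same list with a higher fold enrichment (horizontal axis, 0 is the highest peak of the list) for each of the 11 sites, coloured by list. The FUL-SOC1 peak of SPL2 stands at 3.29%, SPL2, SPL13A site 1 and SPL14 site 1 have peaks under 20%, and SPL13A sites 3 and 4, SPL14 site 2 and SPL15 lie beyond 75%.

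The edge of 3000 bp separated sites of similar strength. Just inside it were the SPL11 peak 2322 bp upstream at 3.12-fold and the FUL-AG-SEP3 peak 2168 bp downstream of SPL13A at 2.70-fold. Just outside were a FUL-SOC1 peak 3386 bp downstream of SPL13A at 3.73-fold, a site 3892 bp upstream of SPL11 at 2.87-fold for FUL-SOC1, 3.0 for FUL-AG-SEP3 and 3.05 for FUL-AG, and a site 4080 bp downstream of SPL3 at 3.37-fold for FUL-SOC1 and 3.24 for FUL. The peaks outside were in coding exons or introns of neighbouring genes.

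Sharing between lists is given for the SPL peaks beside the share over each whole list. Of the 8 FUL-SOC1 peaks, 3 overlapped a peak of another list, against 54.1% of all nuclear FUL-SOC1 peaks. All 5 FUL-AG-SEP3 peaks did, against 78.2% of the list, as did 3 of the 4 FUL peaks, against 77.1%. All 4 FUL-AG peaks and both FUL-SEP3 peaks were shared, against 88.7% and 95.1%. With so few peaks, these counts were close to the shares of their lists. FUL-SOC1 peaks were also the least shared over the whole lists. The FUL-SOC1 peaks that no other list shared were those of SPL3, SPL15, SPL11 (both) and SPL14 site 1, and 1 FUL peak, SPL13A site 3, was likewise found alone. The stated threshold of the lists is p below 0.05 in MACS2. A peak that is absent from a list may still have fallen short of its threshold, and the lists do not give the number of reads behind them.

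Over the 23 peaks, the best box at the summit was exact in 5, had 1 mismatch in 9 and had 2 in 9. The 5 exact ones were the same SPL2 box seen in 5 lists. A box of at most 1 mismatch was present in 5 of the 8 FUL-SOC1 peaks, against 69.0% of that list. It was present in 3 of the 5 FUL-AG-SEP3 peaks (68.2% of the list), 2 of the 4 FUL peaks (74.1%), 3 of the 4 FUL-AG peaks (71.1%) and 1 of the 2 FUL-SEP3 peaks (77.2%). Each count was within 1 peak of the background share of its list. A box of 2 mismatches says little, as over the 16010 nuclear peaks of all lists 99.5% of the windows at the summit held a box of at most 2 mismatches and so did 88.6% of the windows 1000 bp to the right. For at most 1 mismatch the shares were 70.7% and 22.1%, and for exact boxes 16.0% and 0.899%.

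Most boxes in the SPL windows were not under a peak. The windows held 8 exact boxes, of which 1 was covered, and over the nuclear chromosomes 16.6% of the 7741 exact boxes lay in a peak of at least 1 list. Of the 8, 3 were at SPL2, 2 at SPL10, 2 at SPL13A and 1 at SPL15. SPL10 therefore had exact boxes but no peak, and the boxes concerned are printed with that of SPL13A whose 6 flanking bases are all A or T; the capitals mark the boxes.

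SPL10, chr1:9510265-9510294: aattcctaacCCAATAAAGGaatagacaga

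SPL10, chr1:9511434-9511463: tttacacagtCCTAAAATGGaggaaaaaca

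SPL13A, chr5:20580658-20580687: gaaatcgattCCAAATTAGGatttgagatc

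The SPL10 boxes lay at -1737 and -2906 bp relative to its start, and the SPL13A box lay in the 5′ UTR of AT5G50565, 568 bp from the nearest peak. With at most 1 mismatch there were 143 boxes in the windows, 11 of them (7.69%) in a peak, against 6.31% of the 163951 such boxes of the nuclear chromosomes. Every window had at least 11 such boxes, including those of SPL4, SPL5 and SPL9, which had 18, 11 and 14 and no peak.

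**Figure D5:**
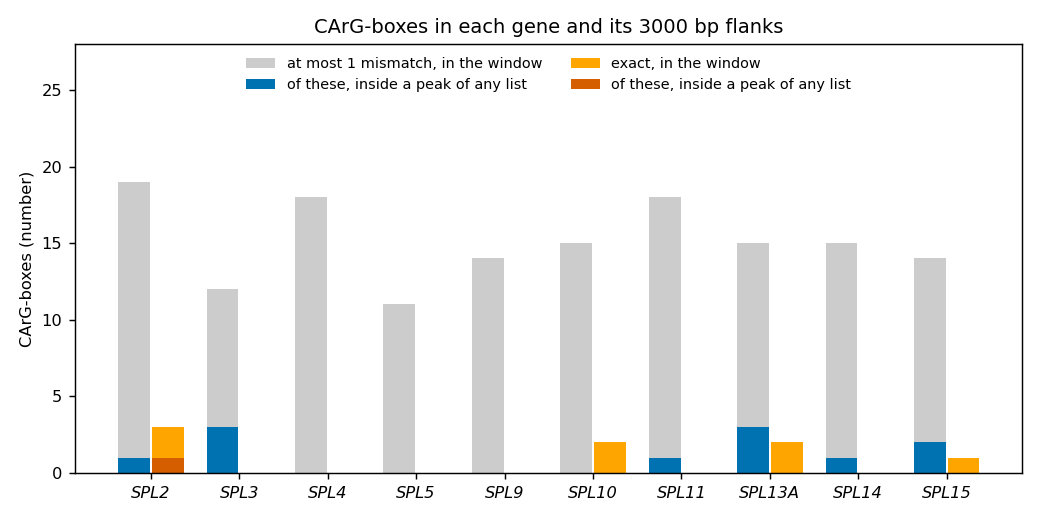
Number of CArG-boxes in each gene and its 3000 bp flanks, with at most 1 mismatch (grey, with those inside a peak of any list in blue) and exact (orange, with those inside a peak in red). Boxes in the stretch common to the SPL10 and SPL11 windows are drawn under both genes, and the single covered exact box is at SPL2.

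The miR156 target sites give a fixed mark in the genes against which the peaks could be placed. The mature miR156a of the RefSeq annotation, with its seed (bases 2 to 8) in capitals, is printed with the matching site of the coding exon that SPL2, SPL9, SPL10, SPL11, SPL13A and SPL15 share letter for letter, written in U as RNA.

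miR156a, chr2:10676534-10676553, minus strand: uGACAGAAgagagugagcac

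Target site in the 6 genes: gugcucucucucuucuguca

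This site had 1 mismatch to perfect pairing. SPL3 and SPL4 carried a site with 2 mismatches and SPL5 one with 3, in each case in the 3′ UTR, and the best match in SPL14 had 8, so that it holds no site. No peak of any list covered a target site. The nearest was the FUL-AG peak of SPL13A site 2, at 449 bp, and for SPL15, SPL3, SPL2 and SPL11 the nearest peak was 1379, 1750, 2564 and 4598 bp away. How often a peak covers a stretch as short as these sites elsewhere in the genome was not computed. The absence of covered sites therefore has no background and is not a result about the SPL genes.

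Among the other genes of the age pathway, peaks of at least 1 list were found at 2 of the 7 remaining SPL genes, against 43.9% of all protein-coding genes. They were found at 5 of the 8 MIR156 genes and 2 of the 5 MIR172 genes, against 36.2% of the 326 annotated miRNA genes. Apart from SPL13B, the SPL gene concerned was SPL16, with a FUL-SOC1 peak of 3.41-fold 2921 bp downstream. Its summit lay in the 3′ UTR of the neighbour AT1G76590, and its best box had 2 mismatches. MIR156 genes, which encode the repressors of the SPL genes, had a peak in 4 of 8 cases for each of FUL-SOC1, FUL-AG-SEP3, FUL and FUL-AG and in 2 for FUL-SEP3. Over all miRNA genes the shares were 23.6% for FUL-SOC1, 22.4% for FUL-AG-SEP3, 14.4% for FUL, 14.7% for FUL-AG and 8.28% for FUL-SEP3. MIR156A had the strongest peak of the pathway genes, with a fold enrichment of 9.55 for FUL (-log10 p 59.5), exceeded by 2.39% of the list, 39 bp upstream of the annotated precursor. On the same box of 1 mismatch, CCATAAAAAG, the other lists had 5.97 for FUL-SEP3, 4.83 for FUL-AG-SEP3 and 3.88 for FUL-AG. The overlapping FUL-SOC1 peak of 2.92-fold, exceeded by 59.5% of its list, had its summit farther upstream, near another box of 1 mismatch, CCTAAAAATG. MIR156D had an exact box under peaks of 4 lists, at 3.50-fold for FUL-SOC1, 3.71 for FUL-AG-SEP3, 3.50 for FUL and 3.24 for FUL-AG. MIR156E also had an exact box under peaks of 4 lists, without FUL-SOC1, at 5.61-fold for FUL, 4.72 for FUL-AG-SEP3, 4.36 for FUL-AG and 3.78 for FUL-SEP3. The peaks of MIR156B and MIR156G lay downstream. MIR156B had 4 peaks of 2.73 to 3.43-fold, 2537 to 2554 bp away in a non-coding transcript of AT4G30975, at a box of 1 mismatch. MIR156G had 1 FUL-SOC1 peak of 3.28-fold, 743 bp away, whose best box had 2 mismatches. MIR172A, whose product acts downstream of SPL9 and represses AP2-like floral repressors, had 8 peaks of 2.36 to 3.45-fold, and MIR172C had 1 FUL-AG-SEP3 peak of 2.86-fold. MIR172B, the MIR172 gene known as a target of SPL9 and SPL15, had none.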

How the data were processed

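FUL DAP-seq samples (3 replicates per protein mixture and 3 of input) were analysed through the 5 deposited narrowPeak lists. Per the submitters' processing notes, the authors used Trim Galore, HISAT2 and MACS2 on TAIR10, with ChIPseeker also named; the versions and the handling of reads with several matches are not given in the sources used here. The fold enrichment is a ratio deposited by the authors, of pileup over the background estimated by MACS2 with the input as control. The deposited -log10 p of each peak is the MACS2 p-value. The deposited -log10 q and score columns were not used. Replicates were combined by the authors, so no spread, interval or test between lists is given, and the lists do not give the reads behind them. The study's methods give read numbers only as a range over samples.

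Genes, transcripts and sequences came from the RefSeq copy of TAIR10, whose 5 chromosomes have the same lengths as in TAIR10. All 10 SPL genes and every peak in their windows were named. Boxes were scored as mismatches to CC[A/T]6GG, a pattern that is its own reverse complement, in 200 bp at each summit, and the closest, then the nearest to the summit, was taken. Copies were found with BLAST 2.17.0 (at least 90% identity over 50% of the peak). Counts of SPL genes and peaks are descriptions beside the same share over all genes or peaks. In simulated data, the mismatch score was right at the known positions of 200 of 200 planted boxes, and 200 of 200 planted 1 bp overlaps were found. Whether the search picks out the planted box itself was not tested. The SPL members, the lists of other SPL, MIR156 and MIR172 genes and the alternatives were chosen with earlier results of these data known. The 95 mitochondrial peaks were left out of the backgrounds.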

Additional observations from a re-analysis of the deposited data

How the results depend on the processing

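No paired analysis was possible because each list combines its 3 replicates, and for the same reason no replicate could be left out. Of 67 alternatives tried over 12 counts, 55 stayed within 1.5 times, a wide band for counts this small. It takes in the fall from 6 SPL genes with a FUL-SOC1 peak to 4 with 1000 bp on each side. The count was also 4 when the nearest start of transcription had to be that of the SPL gene. At both of these settings each other list had 2. With the gene body alone, FUL-SOC1 peaks were at 3 SPL genes and the number of sites fell to 4. With 1000 bp on each side there were 6 sites. Among the 1000 peaks of smallest p of each list, 1 SPL gene was left for FUL-SOC1, 0 for FUL-AG-SEP3 and 0 for FUL-SEP3, while FUL and FUL-AG still had 2 each. Shares over all genes were computed only for the whole lists with 3000 bp on each side. An exact box was present in 5 peaks and a box of at most 2 mismatches in 23. Without SPL13A, a setting chosen after seeing the data because of its identical copy, 1 gene was left for FUL and 1 for FUL-SEP3, and there were 7 sites and 9 of 12 peaks with a box of at most 1 mismatch. A second setting chosen after seeing the data, in which the summit itself had to lie in the window, changed none of the 5 counts of genes, and was not run for the others. As the lists do not give their depth, a site without a peak in a list may have fallen short of detection.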

Other observations

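The RefSeq annotation places the mature miR156i and miR156j on the minus strand of SPL4 and SPL9, at chr1:19807090-19807109 and chr2:17589066-17589085, exactly opposite the miR156 target sites of these genes. Neither gene had a peak in any list.

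Within the identical run of 25719 bp that holds SPL13A and SPL13B, the copy with SPL13A had 12 peaks over the 5 lists and the copy with SPL13B had 8.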
